A study of Mus musculus with 8 samples.

Results

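The genes examined here are 8 genes of PPAR signalling and fatty acid use: the receptors Ppara and Pparg, the fatty acid translocase Cd36, the oxidation enzymes Cpt1a and Acadm, the kinase Pdk4, the secreted lipase inhibitor Angptl4 and the lipid droplet protein Plin2. They were chosen by symbol, as the rows of the value table whose platform annotation gives one of these symbols and no other, with the row of highest mean signal kept for each gene. All 8 were found, each on 1 row, among 19505 named genes, and all 8 were among the 13003 genes tested. RNA came from colon epithelial cells of C57BL/6J mice, fed freely, and was hybridised to 1 array per sample. The 4 groups were untreated wild-type (WT) mice, WT mice given 3.5% dextran sulfate sodium (DSS) in the water for 2 days, untreated SMS2 knockout (SMS2 KO) mice and SMS2 KO mice given the same DSS, with 2 arrays in each. DSS is a polymer that damages the colon lining and is used to model colitis, and SMS2 (gene Sgms2) is an enzyme that makes sphingomyelin. The labels call the replicates biological, and they state neither age, sex and the knockout allele nor whether a replicate was 1 mouse or several.

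PPARs are nuclear receptors that are activated by fatty acids and their derivatives and bind DNA together with a retinoid X receptor. PPAR alpha drives genes of fatty acid uptake, mitochondrial and peroxisomal oxidation and ketone synthesis, and PPAR gamma is best known from fat cells but is also abundant in colon epithelium. Colonocytes burn butyrate and other fatty acids as their main fuel. Cpt1a and Acadm code for steps in the oxidation of long-chain and medium-chain fatty acids, Pdk4 holds back the use of pyruvate, and Pdk4, Angptl4, Plin2 and Cd36 are textbook PPAR targets.

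PPAR and its partner bind a direct repeat of the hexamer AGGTCA with 1 base between the copies, AGGTCANAGGTCA. The 250 bases before the annotated start are shown for the 3 genes with the clearest differences, Ppara (chr15:85735526-85735775, + strand), Pdk4 (chr6:5496279-5496528, - strand) and Cd36 (chr5:17835897-17836146, - strand), and for Plin2 (chr4:86670060-86670309, - strand), which with Cd36 came nearest to the repeat. The sequences are those of RefSeq on GRCm38.p6, 5′ to 3′ on the gene's strand, and capitals mark AGGTCA or its reverse complement TGACCT.
Ppara: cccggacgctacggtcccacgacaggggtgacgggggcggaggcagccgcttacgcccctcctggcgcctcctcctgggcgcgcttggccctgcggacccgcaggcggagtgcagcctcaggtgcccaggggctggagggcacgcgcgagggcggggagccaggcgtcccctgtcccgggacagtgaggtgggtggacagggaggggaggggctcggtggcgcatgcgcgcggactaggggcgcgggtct
Pdk4: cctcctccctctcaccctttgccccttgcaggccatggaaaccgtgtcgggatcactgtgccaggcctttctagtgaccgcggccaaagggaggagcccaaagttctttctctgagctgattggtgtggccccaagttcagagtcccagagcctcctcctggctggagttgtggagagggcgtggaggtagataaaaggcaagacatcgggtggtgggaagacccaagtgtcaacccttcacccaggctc
Cd36: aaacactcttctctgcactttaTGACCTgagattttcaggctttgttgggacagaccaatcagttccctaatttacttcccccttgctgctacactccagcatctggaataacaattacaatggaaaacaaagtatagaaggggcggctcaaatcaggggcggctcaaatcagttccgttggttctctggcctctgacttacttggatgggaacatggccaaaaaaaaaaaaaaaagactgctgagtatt
Plin2: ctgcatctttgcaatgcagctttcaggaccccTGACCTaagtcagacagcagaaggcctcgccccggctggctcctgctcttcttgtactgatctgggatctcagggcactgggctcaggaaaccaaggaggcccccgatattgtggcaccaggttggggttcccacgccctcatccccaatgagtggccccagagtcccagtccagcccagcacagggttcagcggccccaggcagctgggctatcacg
The RefSeq table held 9 such windows for 7 of the 8 genes, 3 of them for Pparg. The hexamer was found on either strand in 6 of the 9 windows, and in 14.0% of all 32851 windows of that length. It was in the single windows of Cd36, Cpt1a, Acadm and Plin2 and in 2 of the 3 of Pparg, and in neither that of Ppara nor that of Pdk4. No window of these genes held the full repeat, which 11 of the 32851 windows did. The nearest stretches, with 2 mismatches to the repeat read on the other strand, were TGGCCTCTGACTT in Cd36, beginning 63 bases before the start, and GGACCCCTGACCT in Plin2, beginning 225 bases before it. A stretch within 2 mismatches was present in 3.24% of all windows. These matches describe the letters and not binding.

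Values are log2 signals as deposited, so a difference of 1 is a doubling, and differences are given with their standard error (SE). Differences were tested with limma in 1 model over all 8 arrays, with Benjamini-Hochberg adjustment over all 13003 genes and a threshold of 0.05 on the adjusted p. Sgms2 fell from 10.79 and 10.76 in untreated WT to 7.30 and 7.33 in untreated SMS2 KO, and was 7.35 and 6.47 in DSS-treated SMS2 KO against 11.27 and 10.90 in DSS-treated WT, differences of -3.46 and -4.18. Background was taken as the 75th percentile of each array's negative controls and lay between 6.00 and 6.24. All 13 colon epithelial markers were above background in every array. Their summed log2 signal was 21.007 to 21.046 in untreated WT and 20.905 to 20.928 in DSS-treated WT. In SMS2 KO it was 20.951 to 20.980 without DSS and 20.787 to 20.858 with DSS. With DSS in WT, 7 of the 13 were lower without overlap of arrays and 0 higher, against 24.1% and 20.3% of all tested genes. Krt20 alone passed there (-1.10 ± 0.26, adjusted p = 0.0415 in limma), where 4.04% of all tested genes did. Summed over 14 fibroblast and matrix markers, the signal was 13.0 to 13.5 in untreated WT, 16.8 to 17.6 in DSS-treated WT, 15.0 to 15.4 in untreated SMS2 KO and 16.7 to 17.2 in DSS-treated SMS2 KO. WT DSS replicate 1 had all 9 exocrine pancreas markers above background and SMS2 KO DSS replicate 1 had 6, against 1 in each other array. The Y-linked transcript Eif2s3y was between 2.81 and 3.17 in the 4 untreated arrays and between 10.2 and 11.4 in the 4 DSS arrays, so DSS and the sex of the mice, as read from this transcript, cannot be told apart here. In bulk RNA, fewer cells of a type and less RNA per cell cannot be told apart either.

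**Figure D1:**
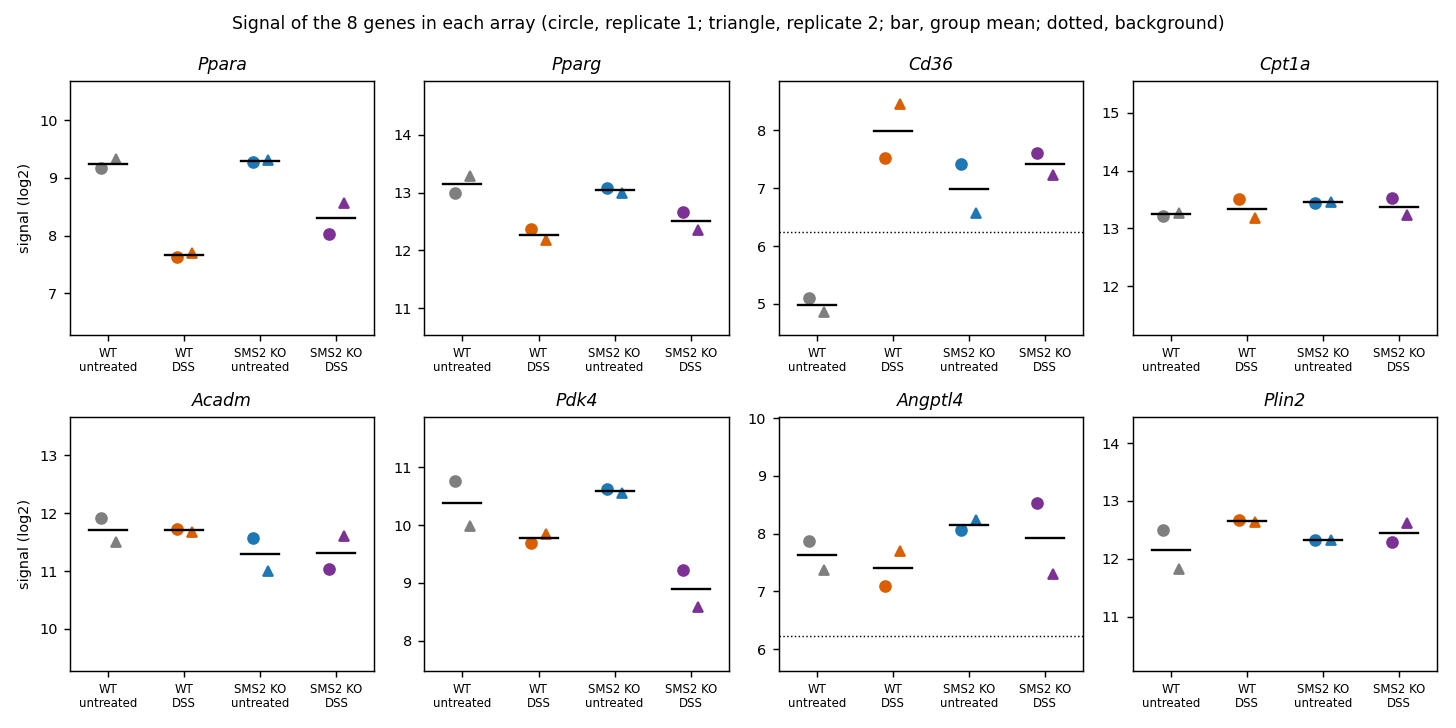
Log2 signal of the 8 genes in each of the 8 arrays, by group; every panel spans the same range of 4.4 log2 units, circles and triangles are replicates 1 and 2, bars are group means, and the dotted line is the highest background of any array. The DSS arrays of both genotypes lie below the untreated arrays for Ppara and Pparg, and Cd36 is below background only in the 2 untreated WT arrays.

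Both receptors had lower signals in the DSS arrays than in the untreated arrays, with no overlap. Ppara (row TC1500000821.mm.2), the receptor that drives fatty acid oxidation, had 9.17 and 9.32 in untreated WT against 7.64 and 7.70 in DSS-treated WT. In SMS2 KO it had 9.28 and 9.30 without DSS and 8.02 and 8.57 with DSS. The untreated arrays of both genotypes thus sat together, the WT DSS arrays were lowest, and the SMS2 KO DSS arrays lay between them. Ppara fell in WT by 1.58 ± 0.24 (SE; 95% interval -2.11 to -1.04, adjusted p = 0.00359 in limma). In SMS2 KO the difference was -0.99 ± 0.24 (adjusted p = 0.114 in limma), which did not pass, and it depended on the array: it was -1.27 without SMS2 KO DSS replicate 2 (adjusted p = 0.0322) and -0.72 without replicate 1, the array with pancreas transcripts (adjusted p = 0.461). The changes of the 2 genotypes differed by 0.58 ± 0.35 (95% interval -0.17 to 1.34, adjusted p = 0.970), which does not show them to be alike or different. The order of the group means was untreated SMS2 KO, untreated WT, SMS2 KO with DSS and WT with DSS, and only the first pair of neighbours lay within the spread of their replicates.

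Pparg (row TC0600001279.mm.2), the receptor for which colon epithelium is known as a rich source, had 12.99 and 13.29 in untreated WT against 12.38 and 12.18 in DSS-treated WT. In SMS2 KO it had 13.08 and 13.00 without DSS and 12.66 and 12.35 with DSS. The gap between treated and untreated arrays was smaller than for Ppara, and the 2 genotypes overlapped within each treatment. The differences of -0.87 ± 0.24 in WT (adjusted p = 0.0714 in limma) and -0.54 ± 0.24 in SMS2 KO (adjusted p = 0.503) did not pass. Averaged over both genotypes, Pparg fell by 0.70 ± 0.17 (adjusted p = 0.0308 in limma) and Ppara by 1.29 ± 0.17 (adjusted p = 0.00102). The averaged call of Pparg was lost without either untreated array of WT or SMS2 KO or without replicate 2 of either DSS group, with adjusted p between 0.0554 and 0.138, and after quantile normalization (0.0639).

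Among the 11 tested receptors and partners, Ppara was the only gene past the threshold for DSS in WT, and none passed for DSS in SMS2 KO. Over all tested genes 4.04% and 0.931% passed, so these counts are only a description. The median difference of this list was -0.20 in WT and -0.30 in SMS2 KO, against -0.05 and -0.04 over all tested genes. Other features of the arrays differed alongside Ppara and Pparg. The 6 posterior homeobox genes, which mark the distal gut, had a summed signal of 13.1 to 13.2 in DSS-treated WT, 11.0 to 11.5 in untreated WT, 11.0 to 11.5 in untreated SMS2 KO and 10.7 to 12.8 in DSS-treated SMS2 KO, and their part in the result was not tested. With the mean of the fibroblast markers as a covariate, the Ppara difference in WT was -0.60 ± 0.77 (adjusted p = 0.759 in limma), where the covariate itself separates treated from untreated arrays. Over the 8 arrays, the tested genes most like Ppara were Ubl5 (Pearson r = 0.984), Ugp2 (0.982) and Entpd5 (0.978), and those most like Pparg were Ceacam20 (0.981), the X-linked demethylase gene Kdm5c (0.977) and the bile acid exporter subunit Slc51b (0.975). These likenesses describe 8 arrays that fall into 4 groups.

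Cd36 (row TC0500001992.mm.2), which takes up long-chain fatty acids, had the largest differences of the 8 genes. It read 5.10 and 4.86 in untreated WT, both under background, and 7.52 and 8.45 in DSS-treated WT. In SMS2 KO it was 7.41 and 6.58 without DSS and 7.61 and 7.23 with DSS. The 2 untreated WT arrays were therefore the only ones without a signal above background, and the DSS-treated SMS2 KO arrays overlapped those of DSS-treated WT and of untreated SMS2 KO. Cd36 rose with DSS in WT, by at least 3.61-fold against background (fitted difference 3.01 ± 0.35, adjusted p = 5.63e-04 in limma). Untreated SMS2 KO was above untreated WT by 2.01 ± 0.35 (adjusted p = 0.0368), at least 1.81-fold. With DSS in SMS2 KO the difference was 0.42 ± 0.35 (95% interval -0.35 to 1.20, adjusted p = 0.797). The 2 DSS changes differed by -2.58 ± 0.50, which did not pass over all genes (adjusted p = 0.149) but did without replicate 1 of both DSS groups, the arrays with pancreas transcripts (-3.24, adjusted p = 0.0290). Both values rest on untreated WT signals under background, so their size is not measured.

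The genotype call of Cd36 without DSS was the less stable of these. It was lost without either untreated WT array (adjusted p = 0.267 and 0.275 in limma), without untreated SMS2 KO replicate 1 (0.333) and after quantile normalization (0.0887). The DSS call in WT held without each array in turn, with differences between 2.54 and 3.47. Both calls were lost with the fibroblast marker mean as a covariate, at 0.97 ± 1.08 for DSS in WT (adjusted p = 0.723) and 1.09 ± 0.56 for genotype (adjusted p = 0.548).

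Cd36 is also made by endothelial cells, macrophages and fat cells. The summed signals of markers of the first 2 of these rose with DSS in WT, as Cd36 did. They also rose with DSS in SMS2 KO, where Cd36 did not pass. Between the untreated genotypes both sums, and that of smooth muscle markers, were higher in SMS2 KO, as was Cd36. For DSS in WT, DSS in SMS2 KO and genotype without DSS, 4.04%, 0.931% and 0.392% of all tested genes passed. Of 12 tested endothelial markers 7 rose with DSS in WT, 3 rose in SMS2 KO and 1 was higher in untreated SMS2 KO. Their summed signal was 9.90 to 9.97 in untreated WT, 11.8 to 12.0 in DSS-treated WT, 10.8 to 11.1 in untreated SMS2 KO and 12.0 to 12.5 in DSS-treated SMS2 KO, with Cldn5 under background in all 8 arrays. Of 9 tested macrophage and dendritic cell markers 5 rose with DSS in WT and 4 in SMS2 KO, and none passed between untreated genotypes. The summed signal of all 11 was 9.998 to 10.1 in untreated WT, 11.9 to 12.2 in DSS-treated WT, 10.4 to 10.8 in untreated SMS2 KO and 11.9 to 12.8 in DSS-treated SMS2 KO, with Adgre1 and Itgax under background throughout. Of 11 tested smooth muscle markers 1 (Pln) passed as higher in untreated SMS2 KO than in untreated WT, where 0.392% of all tested genes passed. All 11 had a positive difference, with a median of 1.91 against -0.03 over all tested genes. Their summed signal was 15.3 to 16.3 in untreated WT, 16.2 to 16.7 in DSS-treated WT, 17.5 to 17.8 in untreated SMS2 KO and 16.7 to 18.6 in DSS-treated SMS2 KO. The part of these cells in the Cd36 result was not tested. The defining fat cell markers Adipoq, Plin1, Plin4, Lep and Retn were under background in all 8 arrays, and 3 of the 8 markers, Cidec, Fabp4 and Lipe, were above it in each.

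Fabp4, a fatty acid binding protein of fat cells, endothelium and macrophages, followed Cd36 closely. It was 7.34 and 7.32 in untreated WT, 10.25 and 10.28 in DSS-treated WT, 9.67 and 8.58 in untreated SMS2 KO and 9.99 and 9.95 in DSS-treated SMS2 KO. As for Cd36, the untreated WT arrays stood alone at the low end. Fabp4 rose by 2.93 ± 0.31 with DSS in WT (adjusted p = 3.05e-04 in limma; 2.30 ± 1.11 and 0.417 with the fibroblast covariate) and was higher by 1.79 ± 0.31 in untreated SMS2 KO (adjusted p = 0.0373). The second of these calls was lost under 7 of 19 alternatives, with differences between 1.24 and 2.33 over all 19. Those 7 were leaving out any single WT array or untreated SMS2 KO replicate 1, quantile normalization and the fibroblast covariate. The genes most like Cd36 over the 8 arrays were Mef2a (Pearson r = 0.979), the mesenchymal filament gene Vim (0.970) and Fabp4 (0.968). The intestinal Fabp2, which carries fatty acids in enterocytes, moved the other way in WT, from 15.63 and 15.55 to 14.72 and 14.09, and fell by 1.19 ± 0.29 (adjusted p = 0.0477). That call lay at the threshold and was lost under 8 of 19 alternatives, among them a test without the filter on low values. In SMS2 KO Fabp2 went from 15.07 and 15.11 to 14.53 and 13.81. This difference of -0.92 ± 0.29 did not pass (adjusted p = 0.267 in limma). Averaged over genotypes Fabp2 fell by 1.05 ± 0.21 (adjusted p = 0.0120), a call kept under 15 of 18 alternatives. Of 11 tested genes of uptake, binding and activation, Cd36, Fabp4 and Fabp2 passed for DSS in WT, 2 higher and 1 lower. None passed in SMS2 KO. Over all tested genes 4.04% and 0.931% passed, so the count of 0 in SMS2 KO is near the background.

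**Figure D2:**
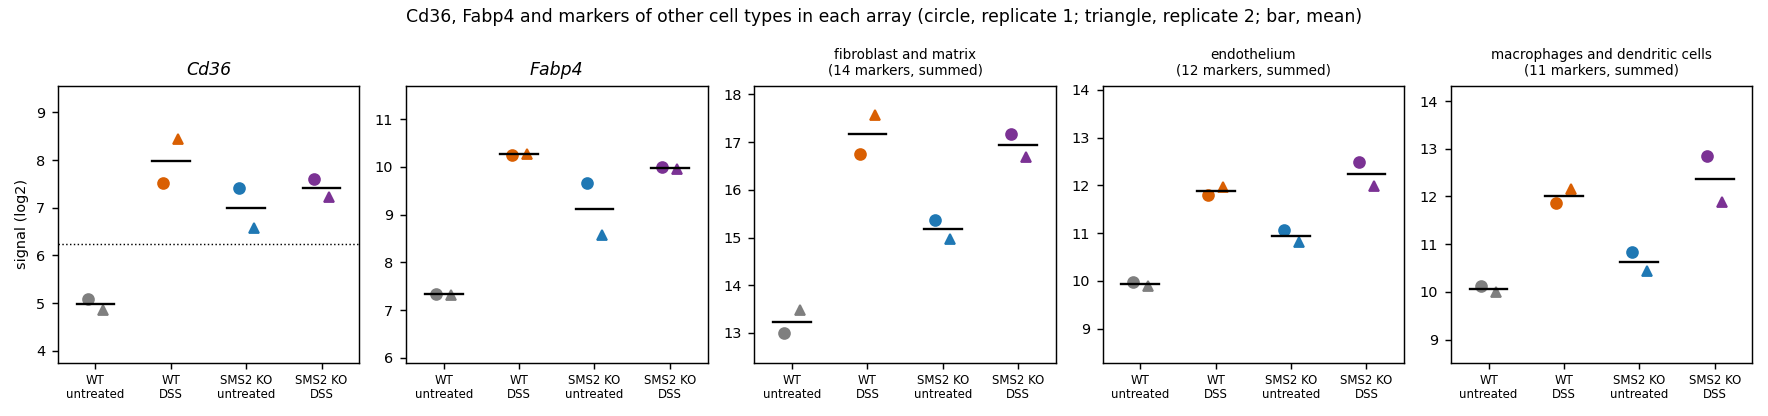
Log2 signal of Cd36 and Fabp4 and the log2 of the summed signal of markers of 3 other cell types in each array, by group, with bars at group means; the dotted line in the Cd36 panel is background. In all 5 panels the untreated WT arrays are lowest and the untreated SMS2 KO arrays lie above them.

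Neither enzyme of fatty acid oxidation passed in any comparison. Cpt1a (row TC1900000008.mm.2), which links fatty acids to carnitine for entry into mitochondria, had 13.22 and 13.27 in untreated WT, 13.50 and 13.18 in DSS-treated WT, 13.44 and 13.46 in untreated SMS2 KO and 13.52 and 13.23 in DSS-treated SMS2 KO. All 8 values lay within 0.34 log2 units, and neighbouring groups overlapped. The DSS differences were 0.10 ± 0.23 in WT (95% interval -0.41 to 0.61) and -0.07 ± 0.23 in SMS2 KO (95% interval -0.58 to 0.43). Acadm (row TC0300003173.mm.2), the medium-chain acyl-CoA dehydrogenase, had 11.92 and 11.51 in untreated WT, 11.73 and 11.68 in DSS-treated WT, 11.58 and 11.01 in untreated SMS2 KO and 11.03 and 11.61 in DSS-treated SMS2 KO. Its replicates differed by up to 0.58, more than any gap between neighbouring group means. The DSS differences were -0.01 ± 0.29 in WT and 0.03 ± 0.29 in SMS2 KO, and SMS2 KO minus WT was -0.42 ± 0.29 without DSS and -0.39 ± 0.29 with DSS (adjusted p = 0.999 and 0.671 in limma). Changes of the size seen for Ppara in WT lie outside these intervals for both enzymes.

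The lists of oxidation genes, which include Cpt1a and Acadm, held no call either. None of 8 tested carnitine shuttle genes, 14 of mitochondrial beta-oxidation, 13 of peroxisomal beta-oxidation and 3 of ketone metabolism passed in any of the 4 pairwise comparisons. Of these 38 genes, 3 had an unadjusted p under 0.05 in limma for DSS in WT and 3 in SMS2 KO, each with a negative difference, where 15.4% and 9.52% of all tested genes did. With 4.04% and 0.931% of all genes called in these comparisons, a count of 0 in 38 is near the background and is no result about oxidation genes. The trifunctional protein subunit Hadha and the dehydrogenase Hadh, named for their high mean signal over all arrays, had differences with DSS in WT of 0.07 ± 0.22 and -0.24 ± 0.23. Catalase (Cat), an enzyme of peroxisomes, had -0.51 ± 0.22 (adjusted p = 0.302) and the mitochondrial carnitine carrier Slc25a20 had -0.33 ± 0.27 in WT and -0.70 ± 0.27 in SMS2 KO (adjusted p = 0.657 and 0.414). Of the mitochondrial genes 10 of 14 had a negative sign in WT and 11 of 14 in SMS2 KO, and of the peroxisomal genes 10 and 12 of 13. The share of negative signs over all genes was not counted, so these counts are only a description. The list medians were -0.21 and -0.13 for mitochondrial genes and -0.29 and -0.23 for peroxisomal genes, against -0.05 and -0.04 over all tested genes.

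**Figure D3:**
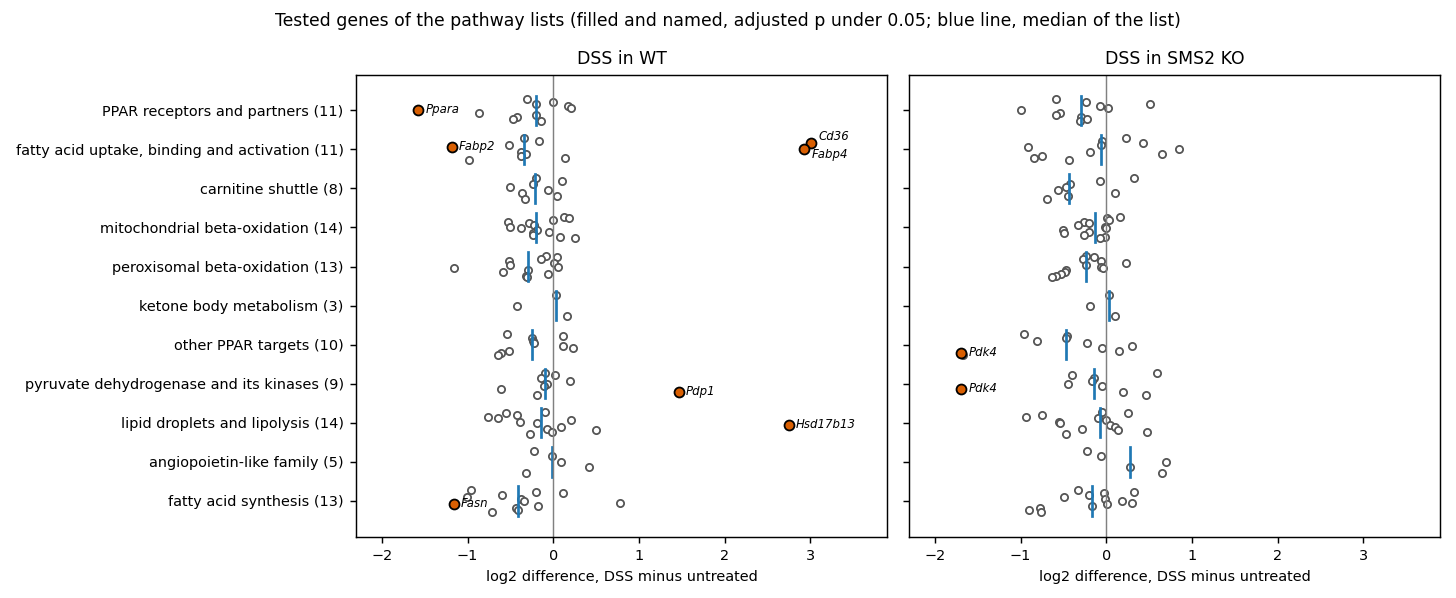
Log2 difference of DSS minus untreated for each tested gene of 11 lists in WT (left) and SMS2 KO (right), with the number of tested genes in parentheses, filled points past the threshold and blue lines at list medians. Cd36, Fabp4, Hsd17b13 and Pdp1 stand to the right and Ppara, Fabp2 and Fasn to the left in WT, and Pdk4, which is on 2 lists, is the only filled gene in SMS2 KO.

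Pdk4 (row TC0600001810.mm.2), the kinase that shuts off pyruvate dehydrogenase and so favours fatty acids as fuel, was lowest in the SMS2 KO DSS arrays. It had 10.76 and 9.99 in untreated WT against 9.69 and 9.84 in DSS-treated WT. In SMS2 KO it had 10.62 and 10.56 without DSS and 9.22 and 8.58 with DSS. The treated and untreated arrays did not overlap in either genotype, and both SMS2 KO DSS arrays were below all others. Pdk4 fell with DSS in SMS2 KO by 1.69 ± 0.30 (95% interval -2.35 to -1.03, adjusted p = 0.0259 in limma). In WT the difference was -0.61 ± 0.30 (95% interval -1.27 to 0.05, adjusted p = 0.375), and the 2 changes differed by -1.09 ± 0.43 (adjusted p = 0.802), so a genotype difference in the response was not shown. Untreated WT decided these values: without its replicate 1 they were -0.22 and -1.47, and without its replicate 2 they were -0.99 and -0.70. Averaged over genotypes Pdk4 fell by 1.15 ± 0.21 (adjusted p = 0.00815). The call in SMS2 KO was lost without either untreated SMS2 KO array (adjusted p = 0.161 and 0.167), without SMS2 KO DSS replicate 2 (0.0624), in a fit on these 4 arrays alone (0.0914) and after quantile normalization (0.0579). Without SMS2 KO DSS replicate 1, the array with pancreas transcripts, it was -2.01 (adjusted p = 0.0369).

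The tested gene most like Pdk4 over the 8 arrays was Vnn1 (Pearson r = 0.974), which codes for the epithelial pantetheinase vanin 1 and is itself on the list of PPAR targets, followed by Sox6 (0.954) and Cdk6 (0.952). Vnn1 had 9.03 and 7.84 in untreated WT, 7.53 and 8.04 in DSS-treated WT, 8.66 and 8.62 in untreated SMS2 KO and 7.12 and 6.83 in DSS-treated SMS2 KO. As with Pdk4, untreated WT replicate 1 stood above replicate 2 and the SMS2 KO DSS arrays were lowest. The difference in SMS2 KO was -1.67 ± 0.35 (adjusted p = 0.0554 in limma), just short of the threshold, and averaged over genotypes Vnn1 fell by 1.16 ± 0.25 (adjusted p = 0.0190). That call was lost without replicate 1 of either WT group or without either untreated SMS2 KO array, with adjusted p between 0.0601 and 0.0633. Of 10 tested PPAR targets on the list, Pdk4 was the only one past the threshold with DSS in SMS2 KO, and none passed in WT. Over all tested genes 0.931% and 4.04% passed, so the count of 0 in WT is near the background. The list medians were -0.47 in SMS2 KO and -0.24 in WT, against -0.04 and -0.05 over all tested genes. Of 9 genes of the pyruvate dehydrogenase complex and its regulators, the phosphatase Pdp1, which reverses the kinases, rose with DSS in WT by 1.47 ± 0.30 (adjusted p = 0.0188), from 9.78 and 9.38 to 11.37 and 10.72. That call was lost without either untreated WT array or without WT DSS replicate 1, the array with pancreas transcripts, where the difference was 1.14 (adjusted p = 0.112).

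Angptl4 (row TC1700001877.mm.2), a secreted inhibitor of lipoprotein lipase that fasting and hypoxia induce in many tissues, did not pass in any comparison. Its values were 7.88 and 7.38 in untreated WT, 7.10 and 7.71 in DSS-treated WT, 8.06 and 8.23 in untreated SMS2 KO and 8.54 and 7.30 in DSS-treated SMS2 KO. The replicates of SMS2 KO with DSS were 1.24 apart, the widest replicate gap of the 8 genes, with every other array except WT DSS replicate 1 between them. The DSS differences were -0.23 ± 0.38 in each genotype, and SMS2 KO minus WT was 0.52 ± 0.38 without DSS and 0.51 ± 0.38 with DSS (adjusted p = 0.999 and 0.665 in limma). With 95% intervals of about -0.31 to 1.34 for genotype, a difference of 1 log2 unit would not be told apart from none. None of the 5 tested genes Angptl4, Angptl6, Angptl7, the lipase gene Lpl and its anchor Gpihbp1 passed in the 4 pairwise comparisons. Over all tested genes 4.04% and 0.931% passed for DSS in WT and SMS2 KO. Between genotypes without and with DSS the shares were 0.392% and 0.354%.

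Plin2 (row TC0400002980.mm.2), which coats lipid droplets, was likewise not past the threshold. It had 12.49 and 11.83 in untreated WT, 12.68 and 12.64 in DSS-treated WT, 12.32 and 12.32 in untreated SMS2 KO and 12.29 and 12.61 in DSS-treated SMS2 KO. The WT DSS arrays were above all others, but untreated WT replicates spanned 0.67 and their mean was the lowest. The DSS differences were 0.50 ± 0.26 in WT (95% interval -0.08 to 1.08, adjusted p = 0.412 in limma) and 0.13 ± 0.26 in SMS2 KO (adjusted p = 0.935). The WT difference was 0.84 without untreated WT replicate 1 and 0.17 without replicate 2. The most similar genes were Trappc12 (Pearson r = 0.962), Fam50a (0.954) and Ier2 (0.942).

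Another lipid droplet protein, Hsd17b13, differed far more. It was 11.85 in both untreated WT arrays, 14.60 and 14.59 in DSS-treated WT, 11.83 and 12.34 in untreated SMS2 KO and 11.99 and 12.25 in DSS-treated SMS2 KO. The WT DSS arrays thus stood apart from all 6 others. Of 6 tested posterior homeobox genes, 2 rose with DSS in WT and 2 were lower in SMS2 KO under DSS. Over all tested genes 4.04% and 0.354% passed there. In both cases these were Hoxd11 and Hoxd13. Their means were 7.40 and 9.21 in untreated WT and 9.69 and 12.16 in DSS-treated WT. In SMS2 KO they were 7.46 and 9.26 without DSS and 7.48 and 8.97 with DSS. Their part in the Hsd17b13 result was not tested. Hsd17b13 rose in WT by 2.75 ± 0.24 (adjusted p = 8.59e-05 in limma; 3.52 ± 0.79 and 0.170 with the fibroblast covariate), and the difference in SMS2 KO was 0.04 ± 0.24 (adjusted p = 0.989). Under DSS, SMS2 KO minus WT was -2.47 ± 0.24 (adjusted p = 5.74e-04). The changes of the 2 genotypes differed by -2.71 ± 0.35 (adjusted p = 0.0126), a call lost without either untreated WT array, WT DSS replicate 1 or untreated SMS2 KO replicate 2, with differences between -2.46 and -2.71. Of 14 tested droplet and lipolysis genes it was the only one past the threshold in a pairwise comparison. The droplet gene Cidec fell with DSS averaged over genotypes by 0.85 ± 0.20 (adjusted p = 0.0291), a call lost without replicate 2 of either WT group, without either untreated SMS2 KO array or without SMS2 KO DSS replicate 2, with adjusted p between 0.0585 and 0.132.

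**Figure D4:**
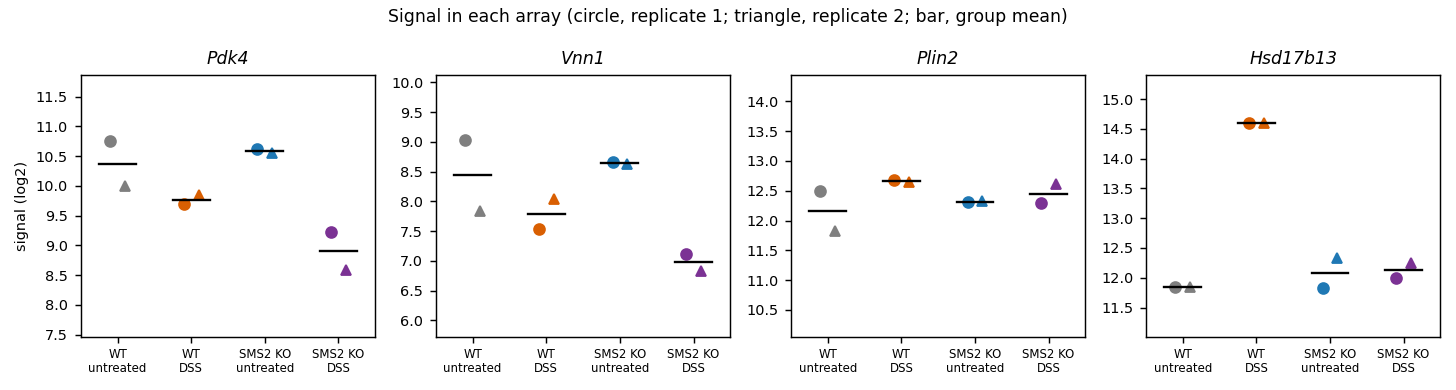
Log2 signal of Pdk4 and Vnn1 and of the lipid droplet genes Plin2 and Hsd17b13 in each array, by group, with bars at group means. Pdk4 and Vnn1 are lowest in DSS-treated SMS2 KO, and Hsd17b13 is above 14.5 only in DSS-treated WT, where Plin2 is near 12.7.

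Of 13 tested genes of fatty acid synthesis, 1 passed in a pairwise comparison, DSS in WT, where 4.04% of all tested genes did. This was Fasn, the fatty acid synthase. It had 9.43 and 9.76 in untreated WT against 8.46 and 8.41 in DSS-treated WT, and fell by 1.16 ± 0.23 (adjusted p = 0.0170 in limma). In SMS2 KO it had 8.83 and 9.11 without DSS and 9.06 and 8.90 with DSS, a difference of 0.01 ± 0.23 (adjusted p = 0.996). The 2 changes differed by 1.17 ± 0.33, which did not pass (adjusted p = 0.449). The call in WT was lost when any single WT array was left out, with adjusted p between 0.0604 and 0.173.

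**Figure D5:**
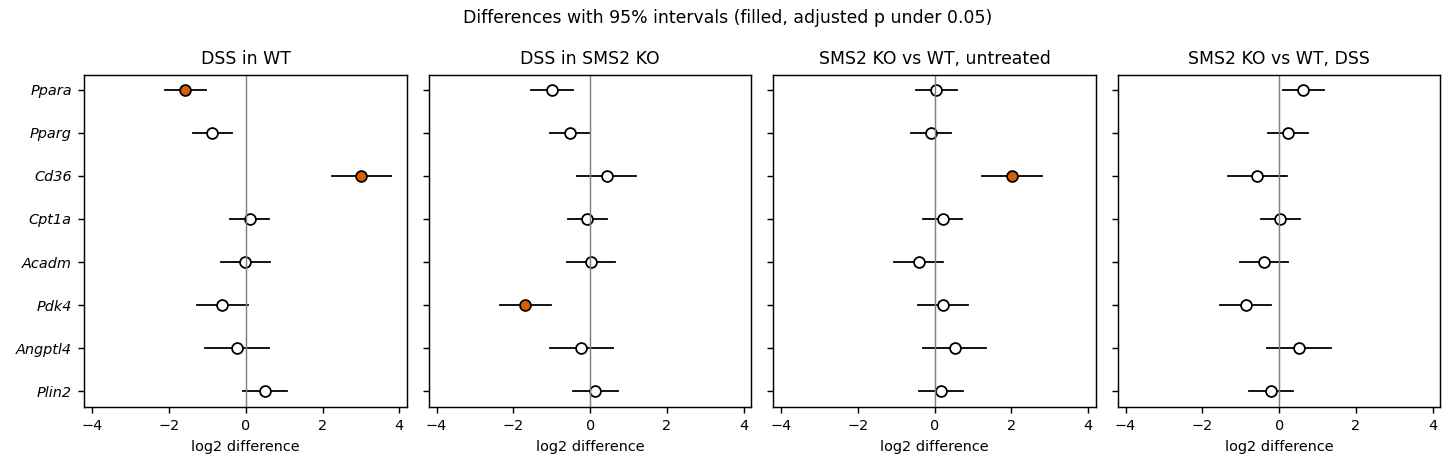
Log2 differences of the 8 genes with 95% intervals in the 4 pairwise comparisons; filled points passed the threshold. Ppara and Cd36 are filled for DSS in WT, Pdk4 for DSS in SMS2 KO and Cd36 for genotype without DSS.

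Counted over the 8 genes, 2 passed for DSS in WT, Ppara lower and Cd36 higher, where 4.04% of all tested genes passed. For DSS in SMS2 KO 1 passed, Pdk4, against 0.931% of all genes. Between the untreated genotypes 1 passed, Cd36, against 0.392%. None passed between the genotypes under DSS, where 0.354% of all genes did, or in the interaction, where 0.0769% did. Averaged over genotypes, DSS gave 4 of 8, with Ppara, Pparg and Pdk4 lower and Cd36 higher, against 5.52% of all genes, and genotype averaged over treatments gave none, against 0.677%. At an unadjusted p under 0.05 in limma, 2 of the 8 genes passed between the genotypes under DSS (Ppara and Pdk4), 2 in the interaction (Cd36 and Pdk4) and 1 for averaged genotype (Cd36), against 10.2%, 5.45% and 11.0% of all genes. Arrays did not overlap for 3 lower and 2 higher genes with DSS in WT, where 24.1% and 20.3% of all genes were so separated, and for 3 lower and no higher genes in SMS2 KO, where 22.0% and 16.8% were. Over both genotypes together, 3 genes were lower in all 4 DSS arrays than in all 4 untreated arrays and none was higher, against 5.67% and 4.76% of all genes. Of 99 tested pathway genes other than these 8, 3 rose and 2 fell with DSS in WT and none passed in SMS2 KO. Of these 99, 1 was higher in untreated SMS2 KO and 1 was lower in SMS2 KO under DSS. At an unadjusted p under 0.05 in limma, 18 of the 99 passed for DSS in WT and 19 in SMS2 KO. The shares of all genes were 15.4% and 9.52%. Between genotypes under DSS 17 did, against 10.2% of all genes, and in the interaction 5 did, against 5.45%. The 8 genes and the lists were chosen with earlier results of these data known, so all these counts and shares are given as a description.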

How the data were processed

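Signals of 8 Affymetrix arrays were analysed from the authors' deposited table, which holds log2 values made with Affymetrix Expression Console, per the submitters' processing notes. The normalization is not stated in those notes. Of 28846 rows, 6640 were controls, 19572 had 1 gene symbol in the platform annotation and 2634 had none. Where a gene had more than 1 row, that with the highest mean signal stood for it. Genes with a mean signal below 5.15, which were 33.3% of them, were not tested. limma 3.58.1 in R 4.3.3 fitted 4 group means over 8 arrays (4 residual degrees of freedom), with p-values adjusted by Benjamini-Hochberg over 13003 genes, and gave 7 comparisons. An exact permutation test of 2 against 2 arrays cannot go below 0.333 and was not used. The number of arrays, 2 in each group, limits the precision. Where a group lay under background in all arrays, a lower bound of the fold is given.

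The 8 genes and the gene lists were chosen with earlier results of these data known. Besides the 8 genes, those named from the pathway lists are members past the threshold and at most 2 of highest mean signal from lists where none passed. The angiopoietin-like list is an exception, with all 5 tested genes named. The 3 most similar genes are given for Ppara, Pparg, Cd36, Pdk4 and Plin2. Replicate numbers were checked for pairing: deviations of same-numbered arrays correlated between -0.25 and 0.28 over 6 pairs of groups, 1 of them over 0.1, so they were not treated as pairs.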

Additional observations from a re-analysis of the deposited data

Results flagged for a closer look

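The DSS change of Hsd17b13, a lipid droplet enzyme, differed between WT and SMS2 KO by -2.71 ± 0.35 (adjusted p = 0.0126 for the interaction in limma). Both WT DSS arrays were above all 6 other arrays. The interaction call was lost under 4 of 18 alternatives. Hoxd11 and Hoxd13, described above, also had their highest group means in DSS-treated WT, and their part was not tested.

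Fasn and Fabp4, both described above, had genotype differences of opposite sign without and with DSS in every array. Their interaction values were 1.17 for Fasn (adjusted p = 0.449 in limma) and -2.08 for Fabp4 (adjusted p = 0.249), and neither passed.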

How the results depend on the processing

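Of the 425 alternative values of the called differences, none changed sign and 341 stayed past the threshold. With the fibroblast marker mean as a covariate no call among the 8 genes was left: 0 for DSS in WT, 0 for DSS in SMS2 KO, 0 between untreated genotypes and 0 for averaged DSS, with 10, 5, 3 and 11 genes called in all, 17 in the interaction and 12 for averaged genotype. The standard errors grew in that fit, and some differences grew too: Pdk4 was -2.34 ± 0.67 with DSS in SMS2 KO and -2.00 ± 0.82 with DSS averaged over genotypes, where Pparg was -1.20 ± 0.62. Among the other named genes the DSS calls in WT of Fabp4, Hsd17b13, Pdp1, Fasn and Fabp2 were lost as well. Quantile normalization left 0 of the 8 genes for DSS in SMS2 KO and 0 between untreated genotypes, with 70 and 22 genes called, and 30 between genotypes under DSS. A fit of only the arrays compared left 0 of the 8 genes and 14 genes for DSS in SMS2 KO, and called 252 genes between untreated genotypes. Without replicate 1 of both DSS groups, 988 genes were called for DSS in WT, 252 between untreated genotypes, 36 in the interaction (1 of the 8 genes, Cd36) and 185 for averaged genotype. Array weights gave 241 genes between untreated genotypes and 21 between genotypes under DSS, where trended, robust moderation gave 70. The main counts were 525 and 121 for DSS in WT and SMS2 KO, 51 and 46 between genotypes without and with DSS, 10 in the interaction, 718 for averaged DSS and 88 for averaged genotype.

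Leaving out single arrays gave 2 to 3, 0 to 1, 0 to 1, 0, 0, 3 to 4 and 0 of the 8 genes in those comparisons in that order, and 215 to 716, 18 to 297, 3 to 132, 24 to 215, 5 to 26, 396 to 1054 and 28 to 362 genes. Setting the array medians equal moved the median of all genes for DSS from -0.05 to -0.13 in WT and from -0.04 to -0.10 in SMS2 KO, and the share of higher calls for averaged DSS from 62.8% to 49.5%. With the replicate number as a block, no call among the 8 genes changed: Ppara fell by 1.58 in WT (adjusted p = 0.00479 in limma), and Cd36 between untreated genotypes was at 0.0485 and Pparg for averaged DSS at 0.0464.

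Signs turned only for differences that had not passed. For DSS in WT, Acadm was 0.0090 after quantile normalization and 1.19 with the covariate, Cpt1a was -0.16 with the covariate and -0.061 without replicate 1 of both DSS groups, and Angptl4 was 0.079 without them. For DSS in SMS2 KO, Acadm was -0.04 with equal medians, Cpt1a 0.038 after quantile normalization and Cd36 -0.84 with the covariate. Between untreated genotypes, Ppara was -0.0003 with equal medians, and Acadm, Pdk4 and Angptl4 were 0.12, -0.26 and -0.75 with the covariate. Under DSS, Angptl4 between genotypes was -0.41 without those 2 arrays. Without single arrays, DSS in WT ranged from -0.22 to 0.20 for Acadm, -0.061 to 0.26 for Cpt1a and -0.53 to 0.079 for Angptl4. DSS in SMS2 KO ranged from -0.27 to 0.32 for Acadm, -0.22 to 0.071 for Cpt1a, -0.85 to 0.39 for Angptl4 and -0.029 to 0.29 for Plin2. Untreated genotypes ranged from -0.027 to 0.12 for Ppara, -0.25 to 0.046 for Pparg, -0.17 to 0.60 for Pdk4 and -0.17 to 0.49 for Plin2, and genotypes under DSS from -0.12 to 0.20 for Cpt1a and -0.10 to 1.13 for Angptl4. The causes were not tested.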
